A study of Mus musculus with 6 samples.

Results

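The receptors for IL-10, IL-22 and the interferons are built from class II cytokine receptor chains. The 9 genes followed here were *Il22ra1*, *Il22ra2*, *Il10ra*, *Il10rb*, *Ifnlr1*, *Ifnar1*, *Ifnar2*, *Ifngr1* and *Ifngr2*, taken by name from the 54532 genes of the deposited expression table. They were chosen with earlier results of these data known, because *Il22ra1* had reads in the *VC* libraries only. The values of this contrast for the receptor chains are therefore given as a description, without a test.

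RNA was sequenced from GFP+ leukemia cells sorted from the bone marrow of mice with acute myeloid leukemia driven by RUNX1-ETO9a (RE9a), a truncated form of the RUNX1-ETO fusion delivered with GFP by a retrovirus. Fetal liver cells without lineage markers from male *Phf6 fl/y* mice gave *WT Phf6,RE9a* leukemia, and those from male *Vav1-Cre;Phf6 fl/y* mice gave *VC Phf6,RE9a* leukemia. Both groups carried RE9a and the floxed *Phf6* allele, and differed in Vav1-Cre, which deletes *Phf6* throughout the hematopoietic system. The comparison asked what loss of *Phf6*, a chromatin-associated PHD finger protein, did to the transcripts of these leukemia cells. There were 3 libraries in each group, WT 1, WT 2 and WT 3 against VC 11, VC 12 and VC 13. The passage and age of the mice, and whether each library came from its own mouse, were not given in the labels, so p-values measure the spread between these libraries, which may be technical.

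Total counts per library were 16817994, 15675358 and 16691325 in *WT Phf6,RE9a* and 16315278, 16095424 and 16039999 in *VC Phf6,RE9a*. Levels are given as CPM, counts relative to library size, scaled by the trimmed mean of M values (TMM). A count of 3, used as the floor, corresponded to at most 0.203 CPM in any library and covers counting error only. Libraries of the same group differed beyond sampling noise, with a chi-square per gene between 11.8 and 46.4 over pairs. Among the WT libraries, WT 2 was highest for *Il10ra* and for many interferon response genes. Among the VC libraries, VC 11 was highest for *Ifngr1* and for neutrophil markers, so values that moved by over 1.5 times without them are also given without them. *Phf6* itself had 1044, 827 and 1142 counts in WT libraries and 388, 314 and 331 in VC libraries. Each VC library was below each WT library, at a 3.17-fold lower level (log2 fold change -1.67, SE 0.13, edgeR adjusted p = 9.32e-05).

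Class II cytokine receptors work as pairs of a chain that is private to a ligand and a chain that is often shared. IL10RA pairs with IL10RB to bind IL-10, IL22RA1 pairs with IL10RB to bind IL-22, and IFNLR1 pairs with IL10RB to bind interferon lambda, whereas IFNAR1 with IFNAR2 binds type I interferon and IFNGR1 with IFNGR2 binds interferon gamma. The pairs act through JAK kinases, with STAT3 as the main carrier of IL-10 and IL-22 signals and STAT2 with IRF9 among the carriers of interferon signals. IL22RA1 and IFNLR1 are known mainly from epithelial cells, IL10RA from blood cells, and IL22RA2 is a soluble protein that captures IL-22.

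The genes for IL22RA1 and IFNLR1 lie beside each other on mouse chromosome 4, on the same strand. Their RefSeq promoter sequences are shown because these 2 chains had the largest differences between groups. Of the 9 genes, 6 matched the RefSeq promoter table (GRCm38.p6). The *Il22ra1* stretch is the 250 bases before the RefSeq start, chr4:135727909-135728158, plus strand, and the *Ifnlr1* stretch is the 80 bases before the deposited gene start, chr4:135686207-135686286, plus strand. Capitals mark matches to the motifs searched on both strands.
Il22ra1: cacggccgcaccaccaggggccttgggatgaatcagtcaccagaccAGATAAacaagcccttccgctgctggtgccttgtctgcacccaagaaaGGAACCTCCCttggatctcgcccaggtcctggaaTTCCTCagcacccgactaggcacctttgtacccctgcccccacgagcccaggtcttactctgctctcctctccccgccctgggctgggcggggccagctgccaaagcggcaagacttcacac
Ifnlr1: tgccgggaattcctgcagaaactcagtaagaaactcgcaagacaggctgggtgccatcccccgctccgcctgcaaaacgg
The *Il22ra1* promoter held 62.4% G and C, above 77.5% of the 32851 promoters in the table, whose median was 52.4%. It held the GATA letters AGATAA 204 bases before the start, letters that 9.99% of all promoters held. On the opposite strand it held a match to the NF-kB motif 156 bases before the start and the ETS letters GAGGAA 122 bases before it, shared with 17.6% and 23.3% of all promoters. The RUNX letters TGTGGT, held by 14% of promoters, were in none of the 6 receptor promoters, and neither were the C/EBP letters TTGCNNAA, held by 9.56%. The STAT letters TTCNNNGAA, held by 7.02% of promoters, were found among the 6 in *Ifnar2* alone. The NF-kB motif was also matched 26 bases before the RefSeq start of *Ifnlr1*, past the end of the stretch printed above, and in *Ifngr2*, and the ETS letters were also in *Ifnar1*. These matches describe letters and not binding.

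*Il22ra1*, the private chain of the IL-22 receptor, was read in *VC Phf6,RE9a* cells and not in *WT Phf6,RE9a* cells. Its counts were 0, 0 and 0 in WT libraries and 1127, 1043 and 1152 in VC libraries. The VC libraries lay close together, at 66.5, 60.8 and 68.4 CPM (65.2 ± 3.997, SD, n = 3), and did not overlap with the WT libraries. Against a floor of 3 counts per library the level was at least 321-fold higher in VC cells. The gene, ENSMUSG00000037157, spans 7 exons at chr4:135728172-135752140 (GRCm38). In the whole table, 26 genes had 0 counts in each WT library and at least 10 in each VC library, and *Il22ra1* had the highest VC level of them, with the next gene at 47.3 CPM.

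*Ifnlr1*, the private chain of the interferon lambda receptor, had 12, 8 and 11 counts in WT libraries and 455, 396 and 389 in VC libraries. Each VC library was above each WT library, and WT libraries were above the floor. The mean level was 0.662 ± 0.118 CPM in WT cells against 24.3 ± 2.18 CPM in VC cells (SD, n = 3). This was 36.3-fold higher, or 5.18 on the log2 scale (SE 0.21). It lies at chr4:135686287-135708181, 19.99 kb from *Il22ra1*.

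*Il10ra*, the private chain of the IL-10 receptor, went the other way. It had 2277, 4183 and 2128 counts in WT libraries and 458, 462 and 526 in VC libraries. WT 2 was the highest library, and each VC library was below each WT library. The mean was 187 ± 84.5 CPM in WT cells and 28.4 ± 2.47 CPM in VC cells (SD, n = 3). The level was 6.57-fold lower, with a log2 fold change of -2.72 (SE 0.30). Without WT 2 the log2 fold change was -2.29. *Il10ra* lies at chr9:45253837-45269149, where a pseudogene, *Gm20612*, and a microRNA gene, *Mir7086*, overlap it, with at most 35 counts in any library.

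*Il10rb*, the chain that the IL-10, IL-22 and interferon lambda receptors share, had 285, 400 and 383 counts in WT libraries and 431, 472 and 491 in VC libraries. In CPM the groups overlapped, at 22.9 ± 4.32 and 27.4 ± 1.87 (SD, n = 3), with a log2 fold change of 0.26 (SE 0.16). The gene lies at chr16:91406164-91425834. *Il22ra2*, the soluble IL-22 binding protein, had 1 count in WT 3, 1 count in VC 11 and 0 in the other 4 libraries. It was at or under the floor in every library, so no fold was computed.

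The type I interferon receptor chains moved little. *Ifnar1* had 968, 1215 and 1103 counts in WT libraries and 1184, 1313 and 1285 in VC libraries, and the groups overlapped in CPM (70.7 ± 10.4 and 74.2 ± 3.76, SD, n = 3, log2 fold change 0.07, SE 0.12). *Ifnar2*, its partner, had 608, 697 and 638 counts in WT libraries and 898, 849 and 847 in VC libraries. The VC libraries, at 49.5 to 53.0 CPM, were above the WT libraries, of which WT 2 was the highest at 47.3 CPM, and the log2 fold change was 0.29 (SE 0.11).

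The interferon gamma receptor chains differed from each other. *Ifngr1*, the ligand-binding chain, had 37, 53 and 88 counts in WT libraries and 220, 140 and 94 in VC libraries. In CPM these were 2.40, 3.60 and 5.33 against 12.99, 8.16 and 5.58, so VC 13 lay just above WT 3 and the groups did not overlap. The log2 fold change was 1.24 (SE 0.40), or 2.35-fold, and 0.87 without VC 11. *Ifngr2*, the accessory chain, had 492, 640 and 611 counts in WT libraries and 674, 747 and 658 in VC libraries. Its groups overlapped in CPM (37.5 ± 5.75 and 40.8 ± 2.38, SD, n = 3, log2 fold change 0.12, SE 0.13).

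**Figure D1:**
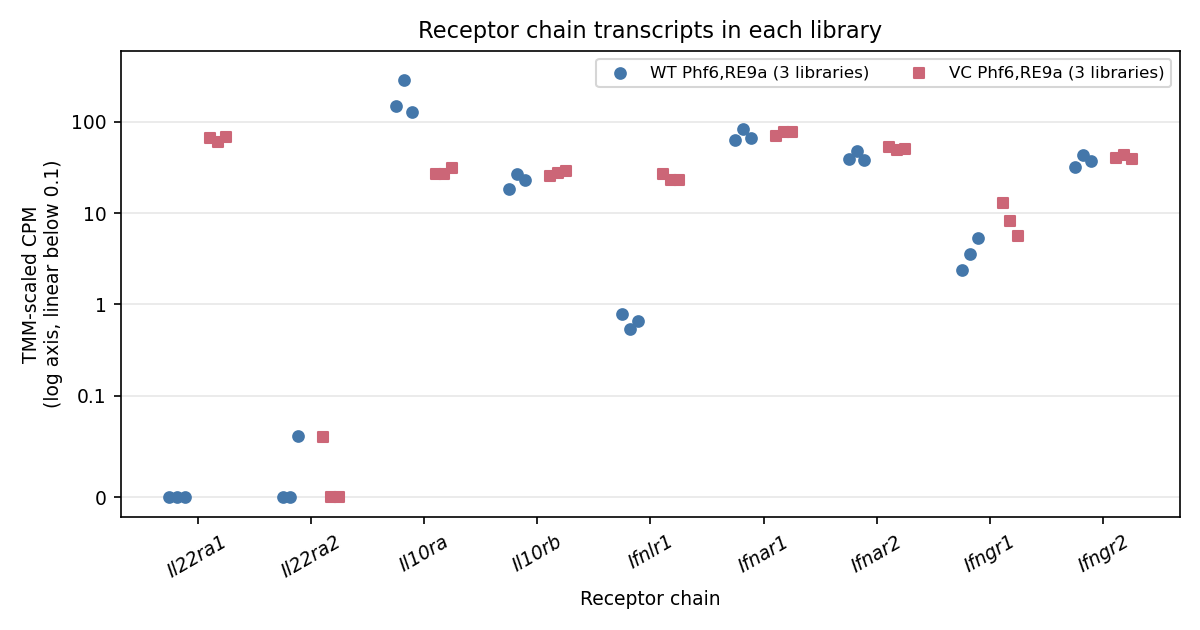
TMM-scaled CPM of each receptor chain (y axis, logarithmic above 0.1 and linear below it) in each library, with circles for the 3 *WT Phf6,RE9a* libraries and squares for the 3 *VC Phf6,RE9a* libraries. *Il22ra1* sits at 0 in WT and between 60.8 and 68.4 in VC libraries, *Ifnlr1* is higher and *Il10ra* lower in each VC library, and the other tested chains lie within 2.35-fold.

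Of the 9 receptor chains 8 were tested, since *Il22ra2* was removed by the filter on low counts. In the fit over all 14169 genes, an edgeR adjusted p under 0.05 was met as higher in VC cells by 21.5% of genes and by 3 of the chains, and as lower by 22.7% of genes and by 1 chain. These chain counts are a description and not a test, since the chains were chosen on this contrast. In either direction 44.2% of all genes were called, and with at least a 2-fold difference 9.95% were higher and 11.5% lower. The groups did not overlap for 4 chains above and 1 chain below WT, against 28.9% and 28.4% of all genes, or 57.3% in either direction. Nothing is read from these counts. The median log2 fold change was 0.27 over the 8 chains and 0.01 over all genes.

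Levels of different chains were compared per length, on the deposited FPKM. In WT cells the order was *Il10ra* at 53.0 ± 23.9, *Ifnar2* at 12.5 ± 1.41, *Ifnar1* at 11.8 ± 1.71, *Ifngr2* at 9.87 ± 1.49, *Il10rb* at 5.98 ± 1.11, *Ifngr1* at 1.32 ± 0.506 and *Ifnlr1* at 0.158 ± 0.0288 (FPKM, SD, n = 3). In that order *Ifnar2* overlapped with *Ifnar1* and *Ifnar1* with *Ifngr2*, and the other neighbours named did not overlap. In VC cells *Il22ra1* had the highest level of the 9, at 25.1 ± 1.40 FPKM, followed by *Ifnar2* at 15.1 ± 0.535, *Ifnar1* at 12.3 ± 0.633, *Ifngr2* at 10.7 ± 0.683, *Il10ra* at 8.01 ± 0.655, *Il10rb* at 7.09 ± 0.467, *Ifnlr1* at 5.75 ± 0.514 and *Ifngr1* at 3.09 ± 1.31. No pair of neighbours in this order overlapped. The summed FPKM of the 9 chains was 94.7 ± 29.1 in WT and 87.2 ± 1.42 in VC cells. *Il10ra* made up 54.5% ± 7.72 of that sum in WT cells and 9.19% ± 0.739 in VC cells, and *Il22ra1* made up 0% and 28.7% ± 1.25.

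**Figure D2:**
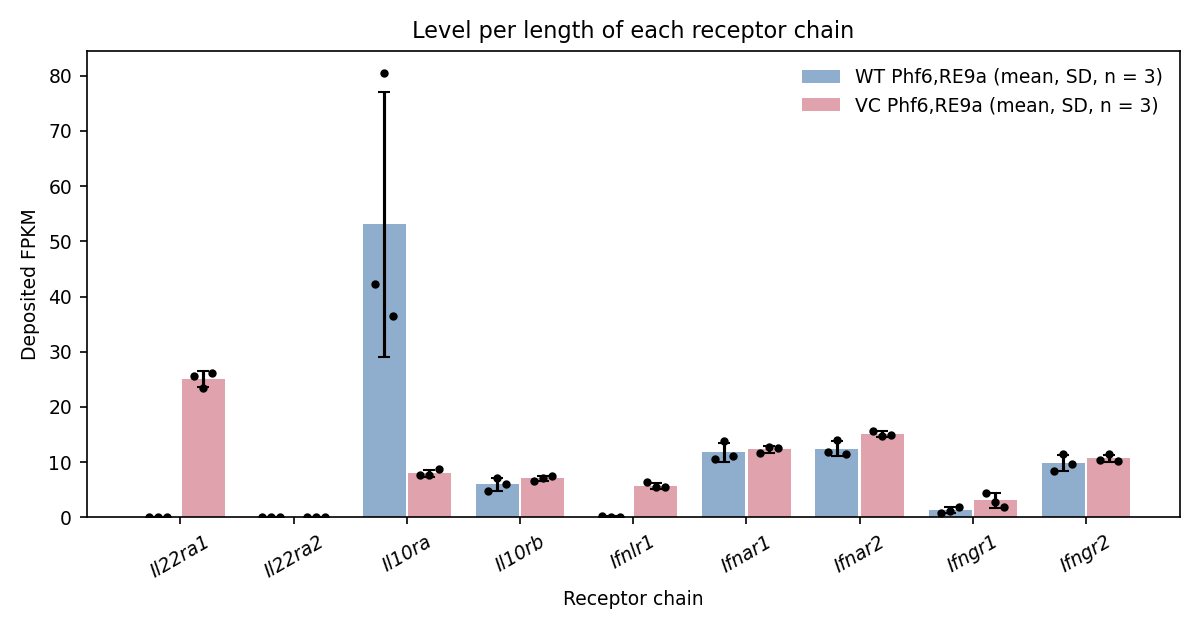
Deposited FPKM (y axis, linear from 0) of each receptor chain, with bars for the mean of 3 libraries per group, lines for the SD and dots for single libraries. *Il10ra* is the tallest bar in WT and *Il22ra1* the tallest in VC cells, while *Il10rb*, *Ifnar1*, *Ifnar2* and *Ifngr2* have bars of similar height in both groups.

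Ratios of FPKM between the chains of a receptor give the same values library by library and are not separate evidence. The ratio of *Il22ra1* to *Il10rb* was 3.88, 3.27 and 3.48 in VC libraries and 0 in WT libraries. The ratio of *Il10ra* to *Il10rb* was 8.70, 11.4 and 6.05 in WT libraries and 1.16, 1.07 and 1.17 in VC libraries, with no overlap. For *Ifnlr1* to *Il10rb* the mean was 0.0276 in WT and 0.816 in VC cells. For *Ifnar2* to *Ifnar1* the ratios were 1.12, 1.02 and 1.03 in WT libraries and 1.35, 1.15 and 1.18 in VC libraries. The ratio of *Ifngr1* to *Ifngr2* was 0.0995, 0.110 and 0.191 in WT libraries and 0.432, 0.248 and 0.189 in VC libraries, and here VC 13 fell just below WT 3.

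Genes within 200 kb of a receptor gene were examined for the same pattern, as position was not used to choose the receptors. Of 69 such genes 20 were tested, of which 6 were called higher and 2 lower in VC cells, against the 21.5% and 22.7% of all genes given above. Beside *Il22ra1*, *Myom3*, which encodes a protein of the muscle sarcomere M band, starts 7.57 kb past its end. *Myom3* had 1, 0 and 0 counts in WT libraries and 52, 52 and 52 in VC libraries (edgeR adjusted p = 0.000166). Its summed ratio was 143, with a 95% interval from 25.3 to 5681 for counting error, without the spread between libraries. Its fitted log2 fold change was 6.72 and, without WT 1, which holds the single WT count, 8.65, where the remaining WT libraries are at 0 and the fit gives no bound. *Gm12989*, a processed pseudogene on the opposite strand between *Ifnlr1* and *Il22ra1*, had 51, 47 and 68 counts in WT and 54, 62 and 106 in VC libraries and did not pass the test (log2 fold change 0.30, SE 0.32, edgeR adjusted p = 0.478). Among the genes further out on chromosome 4, *Fuca1*, a lysosomal fucosidase, was lower (log2 fold change -0.45, SE 0.12, edgeR adjusted p = 0.0187, but 0.0774 and 0.0597 without VC 11 or VC 12), and *Nipal3*, *Srsf10*, *Pnrc2* and *Cnr2* did not pass. *Ifnlr1*, *Il22ra1* and *Myom3* thus had higher levels in each VC library than in each WT library, and the pseudogene that lies among them did not pass.

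**Figure D3:**
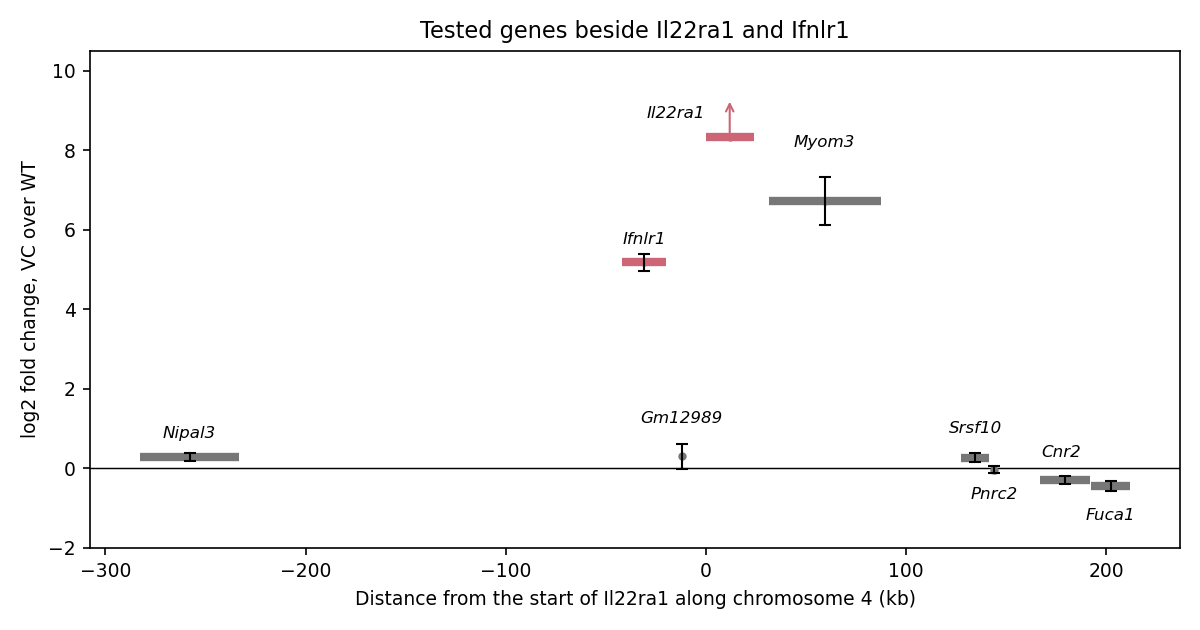
Log2 fold change of VC over WT (y axis, SE as error bars) for the named tested genes around *Il22ra1*, placed by their distance in kb from its start (x axis, bar length is gene length). *Il22ra1* is drawn at its lower bound with an arrow, *Ifnlr1* at 5.18 and *Myom3* at 6.72 (a fitted value that rests on 1 WT count) stand above the other genes, which lie near 0.

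The chromosome 16 cluster holds *Ifnar2*, *Il10rb*, *Ifnar1* and *Ifngr2* within 193 kb. Of 10 tested neighbours there, 4 were higher and 6 did not pass. *Itsn1*, an endocytic scaffold protein, rose with a log2 fold change of 1.52 (SE 0.27, edgeR adjusted p = 0.00338), and *Dnajc28*, *Donson* and *Gm15964* rose by 1.45, 0.46 and 1.12. The call on *Donson* was lost without VC 11 or VC 13 (edgeR adjusted p = 0.0592 and 0.0609), and that on *Gm15964* without any library but WT 1 (edgeR adjusted p from 0.0534 to 0.121). *Gm15964* is annotated as antisense, and the strand setting of the counting is not known, so its reads cannot be told apart from those of an overlapping gene. Beside *Il10ra* on chromosome 9, *Jaml*, an adhesion molecule of leukocytes, was higher (log2 fold change 3.35, SE 0.68, edgeR adjusted p = 0.00584, or 2.58 without VC 11) and *BC049352* was lower (log2 fold change -1.62, SE 0.44, edgeR adjusted p = 0.0198). The latter call was lost without WT 2, VC 11, VC 12 or VC 13 (edgeR adjusted p from 0.0553 to 0.0701). *Il20ra*, another class II receptor near *Il22ra2*, had 0 counts in each WT library and 2, 18 and 34 in VC libraries and was not tested.

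Few reads came from ligands. None of the 6 IL-10 family ligands in the table and none of the 21 interferon ligands passed the filter on low counts. *Il22* had 2, 3 and 4 counts in WT and 0, 2 and 2 in VC libraries, and 17 of the interferon ligands had at most 3 counts in every library. The most counts were of *Ifnz*, interferon zeta, with 4, 9 and 12 in WT and 0, 5 and 4 in VC libraries. *Il20rb*, the chain that joins IL22RA1 in the receptor for IL-20 and IL-24, had 91, 89 and 52 counts in WT and 86, 42 and 50 in VC libraries, and its difference did not pass (log2 fold change -0.52, SE 0.38, edgeR adjusted p = 0.297).

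Members of the JAK and STAT families and IRF9 were lower or did not pass the test. Not all of them act with class II receptors, as *Jak3*, which is lower below, works with the common gamma chain. Of 12 genes tested 8 were lower, 0 higher and 4 did not pass, where 22.7% of all genes were lower and 21.5% higher. Their median log2 fold change was -0.39, against 0.01 over all genes. *Stat3*, which carries IL-10 and IL-22 signals, was 231, 215 and 201 CPM in WT and 127, 135 and 133 CPM in VC libraries. Each VC library was below each WT library (log2 fold change -0.71, SE 0.08, edgeR adjusted p = 0.000505). *Stat4* fell furthest, from 16.7 ± 12.6 to 0.728 ± 0.598 CPM (SD, n = 3, log2 fold change -4.50, SE 0.73, edgeR adjusted p = 0.00222). The log2 fold change of *Stat4* was -3.71 without WT 2 and -5.41 without VC 11. Among the kinases, *Jak1*, *Jak2*, *Jak3* and *Tyk2* fell by 0.35, 0.49, 0.76 and 0.44 on the log2 scale. The call on *Jak1* was lost without VC 11 or VC 12 (edgeR adjusted p = 0.0891 and 0.0770). *Stat2* and *Irf9*, which carry type I interferon signals, had log2 fold changes of 0.14 and 0.42 and did not pass. Both passed as higher without WT 2, at 0.32 and 0.65 on the log2 scale (edgeR adjusted p = 0.0185 and 0.00125). WT 2 was the WT library with the highest values of each. The study picked out this pathway from the same libraries, so its direction is not independent evidence.

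Of 13 inhibitors of receptor signaling tested, 1 was higher, 5 were lower and 7 did not pass, with a median log2 fold change of -0.03. Taken in either direction, this was near the 44.2% of all genes called. By direction, 22.7% of all genes were lower and 21.5% higher, so the calls in this list leaned to lower. *Socs1*, which blocks JAK kinases, was 55.9, 65.4 and 47.0 CPM in WT and 17.2, 17.3 and 23.5 CPM in VC libraries, a log2 fold change of -1.53 (SE 0.17, edgeR adjusted p = 0.000422). *Ptpn2*, a phosphatase that acts on JAK and STAT proteins, fell from 182 ± 14.2 to 80.4 ± 9.48 CPM (SD, n = 3, edgeR adjusted p = 0.000199), and *Cish*, *Pias2* and *Socs2* were also lower. The call on *Pias2* was lost without WT 1 (edgeR adjusted p = 0.0607). *Usp18*, an interferon-induced inhibitor that binds IFNAR2, rose from 21.1 ± 9.78 to 58.7 ± 8.06 CPM (log2 fold change 1.48, SE 0.29, edgeR adjusted p = 0.00505). *Socs3*, a STAT3 target that blocks IL-6 family receptors, had a log2 fold change of 0.04 (SE 0.25) and did not pass.

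**Figure D4:**
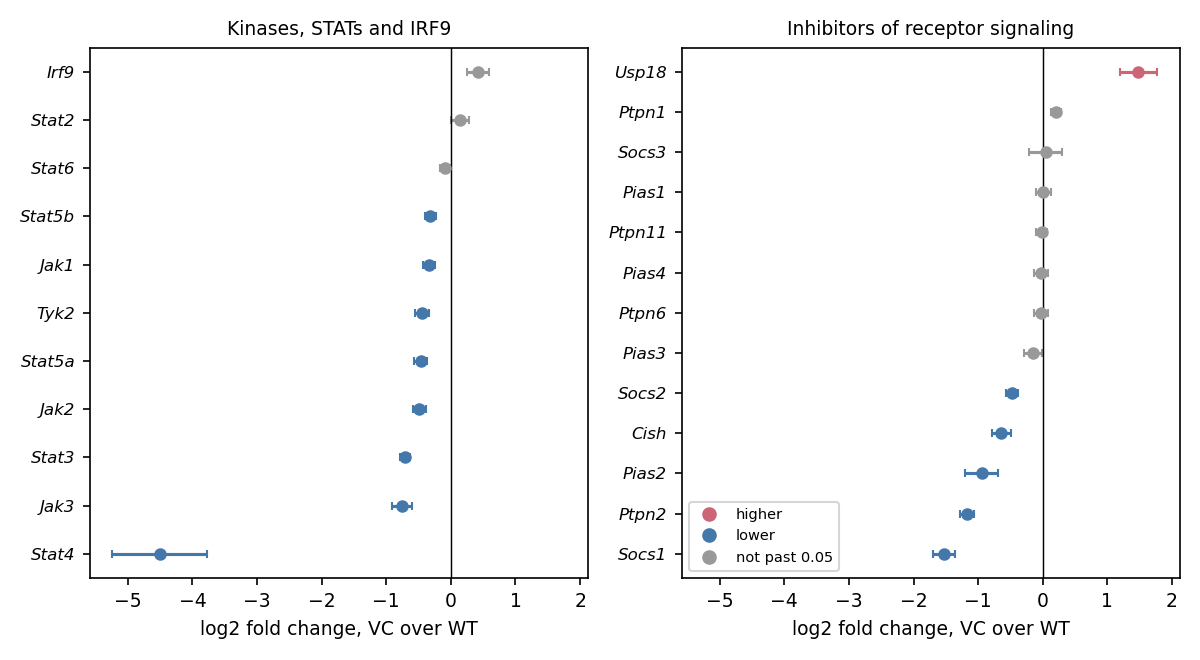
Log2 fold change of VC over WT with its SE (x axis) for 11 of the kinases, STATs and IRF9 (left) and for inhibitors of receptor signaling (right), colored by the edgeR call at 0.05. Of the left list 8 genes are lower, with *Stat4* far to the left, and of the right list *Usp18* alone is higher while *Socs1*, *Ptpn2* and 3 more are lower.

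Interferon response genes were mostly higher. Of 27 tested 18 were higher, 1 lower and 8 did not pass, where 21.5% of all genes were higher and 22.7% lower. Their median log2 fold change was 1.70, against 0.01 over all genes. *Oas2*, a sensor of double-stranded RNA, was 30.4, 126 and 50.1 CPM in WT and 627, 590 and 608 CPM in VC libraries. WT 2 was the highest of its group and still below each VC library (log2 fold change 3.15, SE 0.47, edgeR adjusted p = 0.00155). *Oas1a*, of the same family, rose 3.41-fold from 40.5 ± 8.96 to 138 ± 5.75 CPM (SD, n = 3, edgeR adjusted p = 0.000132). *Ifit2* and *Xaf1* rose 3.28-fold and 6.58-fold, and *Irf7*, which drives type I interferon genes, rose 3.05-fold (edgeR adjusted p = 0.0299). The call on *Irf7* was lost when any library other than WT 2 was left out, at edgeR adjusted p from 0.0610 to 0.0873. *Psmb8*, a subunit of the immunoproteasome, was the lower one (log2 fold change -0.61, SE 0.12, edgeR adjusted p = 0.00586), and *Tap1* did not pass. Leaving out WT 2 gave 20 higher genes and log2 fold changes of 3.91 for *Oas2*, 3.39 for *Xaf1* and 2.53 for *Irf7*.

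Of 27 STAT3 response genes 16 were tested, with 6 higher, 4 lower and 6 not passing, and a median log2 fold change of 0.12. The lower genes were near the 22.7% of all genes called lower, and 21.5% of all genes were called higher. *S100a8* and *S100a9*, which together form calprotectin, rose 9.20-fold each (log2 fold change 3.20, edgeR adjusted p = 0.00330 and 0.00391). Both varied among VC libraries, with *S100a8* at 793, 483 and 203 CPM, and without VC 11 both had a log2 fold change of 2.68. Without WT 3 these were 3.80 and 3.86. *Junb*, a transcription factor of the AP-1 family, fell from 3107 ± 1063 to 1235 ± 237 CPM (SD, n = 3), and *Etv3* fell from 84.3 ± 11.96 to 33.5 ± 2.86 CPM. *Reg3b* and *Reg3g*, targets of IL-22 in the gut, had 0 counts in every library. *S100a8*, *S100a9* and *Lcn2* are also neutrophil genes. Other higher genes of this list may overlap with neutrophil expression too, which was not tested.

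Markers of several cell types were summed in each library, and their part in the results was not tested. Bulk RNA does not show whether such transcripts came from other cells in the sort or from the leukemia cells. From surface markers, the study proposes that *Phf6* loss made these leukemia cells differentiate further. The 10 epithelial markers summed to 1.10, 2.31 and 1.09 CPM in WT and 96.2, 92.9 and 108 CPM in VC libraries. Most of the sum in VC libraries was *Cldn3*, a tight junction protein, with 11, 21 and 10 counts in WT and 1583, 1544 and 1738 in VC libraries. *Krt7*, a keratin of simple epithelia, was also higher, with 4, 9 and 2 counts in WT and 37, 47 and 60 in VC libraries (log2 fold change 3.09, SE 0.52, edgeR adjusted p = 0.00243). These were the 2 markers of the list that were tested. *Krt5* and *Krt14* were at 0 in every library, and *Epcam* had at most 2 counts. Without *Cldn3* the sum was 0.585 in WT and 3.36 CPM in VC cells. Of the hepatocyte markers *Alb*, *Ttr*, *Serpina1a*, *Cyp3a11* and *Fgb* were at 0 in every library.

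Blood cell markers moved with the groups as well. The 10 neutrophil markers, led by *Ngp*, summed to 139, 104 and 348 CPM in WT and 2068, 1407 and 625 CPM in VC libraries, and all 10 were called higher, or 9 without VC 11. *Ifngr1* was likewise highest in VC 11 and lowest of the VC libraries in VC 13, and so were the sums of B and plasma cell, T and NK cell, and macrophage and dendritic cell markers. Among WT libraries *Ifngr1* and the neutrophil markers were highest in WT 3 but differed in which of WT 1 and WT 2 was lowest, whereas the B and plasma cell markers had the WT order of *Ifngr1*. Within VC libraries the highest over the lowest value was 3.31 for neutrophil markers, 2.72 for B and plasma cell markers, 2.05 for T and NK cell markers, 1.36 for macrophage and dendritic cell markers and 2.33 for *Ifngr1*, but 1.13 for *Il22ra1*, 1.16 for *Ifnlr1* and 1.16 for *Il10ra*. It was also low for the summed markers of mast cells and basophils (1.08), erythroid cells (1.13) and epithelial cells (1.16). The first of these sums hides wider spread in single genes. *Hdc*, the most abundant in VC libraries, was even at 2683, 2502 and 2504 CPM. *Cpa3* was at 158, 390 and 274 CPM and *Tpsb2*, a mast cell tryptase, at 0.413, 50.9 and 2.14 CPM in VC libraries. Mast cell and basophil markers, led by *Cpa3* in WT libraries and by *Hdc* in VC libraries, summed to 22900, 25360 and 16430 CPM in WT and 4919, 4970 and 5331 CPM in VC libraries, with 8 of 9 lower, or 7 without VC 11, the direction of *Il10ra*. Erythroid markers, led by *Hbb-bs*, summed to 2162, 1438 and 1974 CPM in WT and 4806, 5124 and 4551 CPM in VC libraries. They were higher for 7 of 7, B and plasma cell markers, led by *Jchain* over all libraries, for 5 of 5, and macrophage and dendritic cell markers for 2 of 10. Without VC 11 these were 7, 4 and 1. B and plasma cell markers summed to 1.95, 2.44 and 3.09 CPM in WT and 30.05, 30.01 and 11.05 CPM in VC libraries. Macrophage and dendritic cell markers summed to 30.6, 40.2 and 36.4 CPM in WT and 64.5, 57.1 and 47.4 CPM in VC libraries. T and NK cell markers summed to 3.57, 2.38 and 3.33 CPM in WT and 10.9, 7.22 and 5.29 CPM in VC libraries, and *Nkg7*, the 1 gene tested, was called higher, a call lost without VC 11. Stromal and endothelial markers summed to 8.18, 3.26 and 6.05 CPM in WT and 10.3, 10.7 and 8.32 CPM in VC libraries, with 1 of 4 higher and 1 lower. For these 4 lists each VC library was above each WT library. In bulk RNA, fewer cells of a type and less RNA per cell cannot be told apart.

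**Figure D5:**
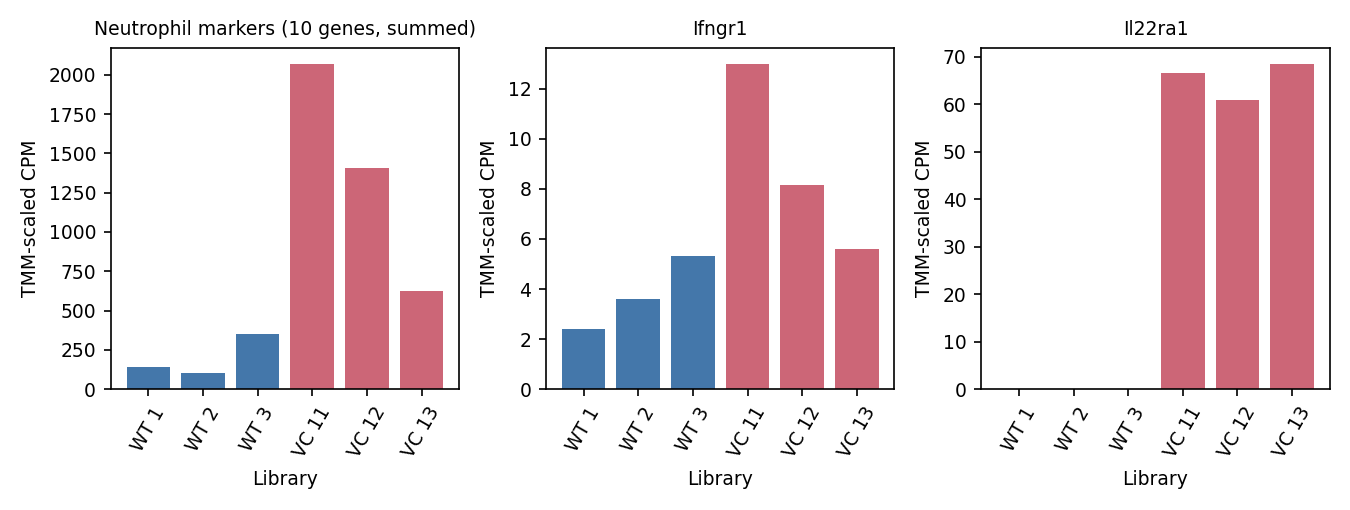
TMM-scaled CPM (y axes, linear from 0) of 10 neutrophil markers summed, *Ifngr1* and *Il22ra1* in each library (x axes), with *WT Phf6,RE9a* bars first and *VC Phf6,RE9a* bars last. *Ifngr1* and the neutrophil markers are both highest in VC 11 and lowest of the VC libraries in VC 13, as were the B and plasma cell, T and NK cell and macrophage and dendritic cell markers, which are not drawn, and *Il22ra1* is nearly level over the 3 VC libraries.

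The genes whose log2 CPM was most like that of *Il22ra1* over the 6 libraries were *Cd200r2* (Pearson r = 0.99976), *Zxdc* (0.99942), *Mgst3* (0.99933), *1700086O06Rik* (0.9993) and *Eng* (0.99915). The search covered 11442 tested genes whose log2 CPM averaged 1 or more. As the 6 libraries form 2 groups, r was over 0.99 for 140 genes and mainly reflects an even level within each group. *Ifnlr1* ranked 10 with r = 0.9983. *Cd200r2*, of the CD200 receptor family, had 9, 9 and 11 counts in WT libraries and 502, 462 and 468 in VC libraries.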

How the data were processed

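The receptor genes and the gene lists were chosen with earlier results of these data known. The authors deposited read counts per gene, FPKM values and gene lengths for 6 libraries made with an Illumina TruSeq kit from total RNA. The deposited FPKM equalled the count per length and library size to a relative deviation of at most 5.22e-15. Columns of the authors' own comparison were not used. The submitters' processing notes name Bowtie 0.12.0 and mm8, whereas 98.26% of the 54409 genes with a GENCODE M21 identifier had its GRCm38 coordinates, so coordinates are given on GRCm38. The counting tool, annotation release and strand setting are not given in the sources used here.

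Counts were fitted with edgeR 4.0.16 (R 4.3.3; filterByExpr, TMM, quasi-likelihood test, 3 libraries per group, Benjamini-Hochberg adjustment over all 14169 genes tested, threshold 0.05), with limma 3.58.1 on log2(FPKM + 1) and DESeq2 1.42.0 as alternatives, beside RLE scaling, other filters and thresholds, and leaving out each library. Counts of markers without WT 2 or VC 11 were added after seeing the data. Log2 CPM used a prior count of 2, and the floor was 3 counts per library. Named were the receptor chains and *Phf6*, in each pathway list the 3 most abundant genes and the 3 with the smallest p (any gene of lists with at most 12), neighbours with 10 or more counts, the 5 genes most like *Il22ra1*, and of each marker list its most abundant gene and those at 0. Other genes were named after their values were seen. In a single set of simulated counts with 13894 genes tested, 53 of 98 genes changed 2-fold (54.1%) and 79 of 97 changed 4-fold (81.4%) were recovered. There 13699 genes were unchanged, whereas 44.2% of genes were called in the data, so these shares do not measure recovery in the data. GFP and RE9a transcripts were not analysed here, and some genes that enter the counts are not reported here by name.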

Additional observations from a re-analysis of the deposited data

How the results depend on the processing

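No paired analysis was possible because the groups share no replicate numbers. Of 258 comparisons of a main result with an alternative, 237 stayed within the limits set and no called value changed sign, and over 1116 fits of 94 single genes 46 calls were lost, 21 gained and no called gene changed sign. Directions of the tested receptor chains held with RLE scaling, and, for those other than *Il22ra1*, with no count filter and with DESeq2. At least 10 counts in every library removed *Ifnlr1* and *Il22ra1*. The log2 fold change of *Ifnlr1* was 2.54 with limma on log2(FPKM + 1) and 4.51 on log2(FPKM + 0.1), as a pseudocount shrinks low values. A stricter threshold of 0.01 left 1690 higher and 2110 lower genes. Requiring at least 2-fold left 1 lower kinase or STAT, 2 lower inhibitors, 2 lower STAT3 response genes and 0 lower interferon response genes. With no count filter, 2 interferon response genes and 4 neighbours were lower, with DESeq2 2 interferon response genes were lower, and with at least 10 counts in every library 2 inhibitors were higher and 1 neighbour was lower; the cause was not tested.

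Leaving out each library in turn gave 2179 to 3132 higher and 2511 to 3338 lower genes. It gave 0 to 3 higher kinases and STATs (3 without WT 2) and 6 to 8 lower, 1 higher and 4 to 5 lower inhibitors, 4 to 7 higher and 2 to 4 lower STAT3 response genes (2 lower without VC 12), 15 to 20 higher and 1 to 3 lower interferon response genes (3 lower without WT 3, 2 without VC 11), and 5 to 9 higher and 0 to 3 lower neighbours (0 lower without VC 11 or VC 12, 1 without WT 2 or VC 13). The log2 fold change of *Ifnar1*, which was not called, ran from -0.01 to 0.19 and changed sign without WT 1, and the fold of *Il22ra1* was at least 313 to at least 335. Levels under about 3 counts per library were beyond the depth.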
